A study of Mus musculus with 6 samples.

Results

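The genes described here were *Parp1*, *Parp8*, *Parp9*, *Parp10*, *Parp11*, *Parp12* and *Parp14* of the PARP family, listed for a link of the family to interferon, together with *Dtx3l*, the partner of *Parp9*. *Parp1* and *Parp8* are not known mainly for such a link, and the antiviral gene *Zc3hav1* was not on the list. They were taken from a list of names, drawn up with earlier results of these data known, and they made up 8 of the 36137 genes in the tables, of which 18506 had enough counts to be tested. All 8 passed that filter. RNA-seq was performed on bone marrow-derived macrophages (BMDMs) exposed for 8 h to hypoxia with serum starvation (HSS), a culture model of ischemia, in 3 libraries from WT and 3 from Drp1 KO mice. DRP1, encoded by *Dnm1l*, is the GTPase that drives mitochondrial fission, and the comparison asked how its loss in macrophages changes gene expression under HSS. Drp1 KO mice were *LysM*-Cre+/- with *Drp1* fl/fl alleles (MɸDrp1KO), and the WT mice of the RNA comparison were *LysM*-Cre+/- with *Drp1*+/+ alleles, so both groups carried the Cre. The lysozyme M promoter drives this Cre in myeloid cells and not in macrophages alone. Mice of both sexes were from 8 weeks of age in the study as a whole, marrow from 2 mice of each genotype was pooled, the cells were differentiated for 7 days in L929-conditioned medium, and oxygen during HSS was 2% in the methods and 2.1% in the labels. The labels call the libraries of a group biological replicates, but the sources did not state that each came from a separate pool, so every p-value below measures the spread between these libraries, which may be technical. No library of unstressed cells was analysed here.

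PARP enzymes transfer ADP-ribose from NAD+ to proteins, either as chains, which PARP1 builds at DNA breaks, or as single units, which most other members add. Several of the mono-ADP-ribosyltransferases are known as interferon-stimulated genes with antiviral roles, and in macrophages PARP9 and PARP14 have been linked to the response to interferon-γ and IL-4. PARP9 has little catalytic activity on its own and forms a heterodimer with the E3 ubiquitin ligase DTX3L, whereas macrodomain proteins read or remove the ADP-ribose mark. Type I interferon acts on many of these genes through ISGF3, a complex that includes STAT2 and IRF9 and binds the interferon-stimulated response element (ISRE).

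*Parp14*, *Dtx3l* and *Parp9* are neighbours on chromosome 16 of GRCm39, within 139.8 kb. *Parp14* lies on the minus strand at chr16:35653231-35692003, *Dtx3l* on the minus strand at chr16:35746881-35759521 and *Parp9* on the plus strand at chr16:35758840-35792980. *Dtx3l* and *Parp9* therefore diverge from a shared region, in which the genes overlap by 682 bp and 458 exonic bases belong to both genes on opposite strands. *Dnm1l*, the targeted gene, is on the same chromosome, 19.5 Mb from *Parp14*. *Parp11* (chr6:127423483-127491198, plus strand) and *Parp12* (chr6:39063342-39095573, minus strand) share chromosome 6 but are far apart. *Parp1* lies at chr1:180396443-180431307 on the plus strand, *Parp8* at chr13:116987380-117162073 on the minus strand and *Parp10* at chr15:76115374-76127648 on the minus strand.

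The start regions of the genes were read from the genome because the ISRE connects this family to interferon. Each window ran from 250 bases before to 50 bases after an annotated transcript start, and it was searched on both strands for an ISRE core, the motif of ISGF3 in which a pair of TTTC repeats are separated by 2 bases, and for a gamma-activated sequence (GAS), a motif known from interferon-γ target genes, spelled TTCNNNGAA. Over 21757 promoters of protein-coding genes, 3.84% held the first and 8.82% the second. The canonical start of each of the 8 genes was searched, the start of the most abundant transcript where that was another (*Parp9-201* and *Parp10-201*), and an upstream start of *Parp11* that was added after its transcript values were seen, so the windows that held a match cannot be set against those shares. None of the 8 canonical windows held either motif. Of all 11 windows, 2 held the ISRE core, at the *Parp9-201* start and at the upstream start of *Parp11*. A GAS match was found in the same *Parp11* window, 37 bases before the start and overlapping the ISRE core. The 4 windows printed here are the divergent pair and both *Parp11* starts, since these carry the matches or sit beside them. They are written 5′ to 3′ on the strand of the gene, from GRCm39 with GENCODE M39 starts, and capitals mark the ISRE core.
Parp9-201: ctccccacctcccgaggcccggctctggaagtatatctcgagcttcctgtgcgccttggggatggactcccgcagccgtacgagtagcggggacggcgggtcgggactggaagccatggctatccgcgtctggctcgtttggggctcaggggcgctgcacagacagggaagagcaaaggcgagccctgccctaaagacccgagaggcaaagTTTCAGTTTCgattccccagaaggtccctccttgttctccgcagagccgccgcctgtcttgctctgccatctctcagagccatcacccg
Dtx3l-201: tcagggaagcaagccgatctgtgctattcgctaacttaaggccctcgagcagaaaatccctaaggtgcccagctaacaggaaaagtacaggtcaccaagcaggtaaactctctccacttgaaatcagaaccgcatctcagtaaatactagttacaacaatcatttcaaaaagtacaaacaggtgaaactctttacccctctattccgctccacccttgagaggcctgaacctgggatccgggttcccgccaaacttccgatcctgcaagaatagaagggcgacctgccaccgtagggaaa
Parp11-202: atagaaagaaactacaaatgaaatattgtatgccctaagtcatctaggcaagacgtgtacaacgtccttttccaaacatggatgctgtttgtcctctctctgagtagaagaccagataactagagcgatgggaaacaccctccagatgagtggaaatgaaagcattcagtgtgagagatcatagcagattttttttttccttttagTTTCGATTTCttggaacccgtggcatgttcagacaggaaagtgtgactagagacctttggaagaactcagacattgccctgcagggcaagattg
Parp11-201: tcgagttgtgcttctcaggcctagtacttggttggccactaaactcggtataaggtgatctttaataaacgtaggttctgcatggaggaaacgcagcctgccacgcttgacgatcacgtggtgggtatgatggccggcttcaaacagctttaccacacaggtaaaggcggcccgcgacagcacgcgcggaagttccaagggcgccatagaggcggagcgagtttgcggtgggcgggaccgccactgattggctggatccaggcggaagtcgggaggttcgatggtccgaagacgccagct

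The *Parp9-201* window covers chr16:35759131-35759430 on the plus strand, and its match, TTTCAGTTTC at chr16:35759342-35759351, begins 39 bases before the start. The *Dtx3l-201* window covers chr16:35759472-35759771 on the minus strand, and the start sites of the pair are 140 bases apart. The *Parp9-201* match also lies within the annotated *Dtx3l* gene, downstream of the *Dtx3l-201* start. The *Dtx3l-201* window ends before reaching it, so the match is near both starts although only the *Parp9-201* window holds it. The *Parp11-202* window covers chr6:127423553-127423852, and its match, TTTCGATTTC at chr6:127423759-127423768, begins 44 bases before the start. The *Parp11-201* window covers chr6:127430324-127430623, 6771 bases downstream, and held neither motif. Transcript sequences and starts are those of GENCODE M39, and they may not be exactly those quantified, since 33 of the 45 deposited transcripts of the 8 genes have the same length in that annotation and *Parp9-201*, *Parp11-201* and *Parp11-202* were deposited as other versions. These letters describe the windows and are not evidence of binding, and windows without a match say only that the letters are absent there.

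Libraries held 23389488 to 32231206 estimated reads each. A count of 3, taken as the floor, corresponded to 0.0917 to 0.136 CPM (counts scaled to the library total), and the lowest count of any of the 8 genes in any library was 297, for *Parp11*. Floors of this kind cover counting error only. *Dnm1l* was 72.7, 69.9 and 75.1 CPM in WT libraries 1, 2 and 3 and 58.7, 60.7 and 66.3 CPM in Drp1 KO libraries 1, 2 and 3. Every Drp1 KO library was below every WT library, as for 10.3% of all genes. The log2 fold change of -0.23 (SE 0.0921) had an adjusted p of 0.248 in edgeR's quasi-likelihood test with Benjamini-Hochberg adjustment. Counts summed over whole transcripts do not isolate the deleted exons. At the protein level, the study reported deletion of DRP1 in BMDMs by immunoblot. In a principal component analysis the first component (46.0% of variance) separated the genotypes, and the second (29.5%) set library 1 of both groups apart from the other 4. Summed macrophage markers were 13410 to 14810 CPM in WT compared with 11990 to 14420 CPM in Drp1 KO libraries. *Lyz2* alone made up 9048 to 9887 CPM of this in WT and 8173 to 9961 CPM in Drp1 KO libraries. Among the 8 markers *Fcgr1* was higher and *Csf1r* and *Mertk* were lower by adjusted p, against 3.36% of all genes in either direction. Of 10 neutrophil markers 7 were tested and 6 were higher. None passed by adjusted p in edgeR or limma-voom, and 4 had an unadjusted p under 0.05 (against 16.4% of all genes). DESeq2 called 2 (against 1155 of 18506 genes), and 4 passed with the replicate block (against 12.0% of all genes). The median log2 fold change of the 7 was 1.30. Their sum was 52.1 to 66.1 CPM in WT compared with 64.8 to 94.1 CPM in Drp1 KO libraries, and *Ly6g* was at 0 in all 6. Of that sum *Csf3r* made up 41.7 to 47.0 CPM over the 6 libraries (log2 fold change -0.05), whereas *S100a8*, *S100a9*, *Ngp*, *Ltf* and *Camp* had log2 fold changes of 1.38, 1.30, 1.32, 1.03 and 2.02. *Camp* lay between 0 and 0.642 CPM, under the floor in some libraries of both groups. *S100a9* was 3.45, 10.2 and 12.1 CPM in the WT libraries and 10.9, 26.2 and 26.4 CPM in the Drp1 KO libraries, with overlap. These markers were picked out after their values were seen. Dendritic cell markers summed to 8.36 to 9.68 against 6.86 to 8.57 CPM, fibroblast markers to 2.01 to 3.44 against 2.01 to 2.38 CPM and lymphocyte markers to 7.78 to 9.44 against 7.90 to 11.4 CPM. The part of other cells in the results below was not tested, and in bulk RNA fewer cells of a type and less RNA per cell cannot be told apart.

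*Parp12*, *Parp14*, *Parp11* and *Dtx3l* rose in Drp1 KO BMDMs under HSS, by 1.78- to 2.07-fold. Since the list was drawn up with results known, the shares over all genes given here are a background and not a test of the list. These 4 of 8 genes passed an adjusted p of 0.05, against 3.36% of all genes tested in either direction and 2.29% of all genes that passed as higher. *Parp9* and *Parp10* were 1.39- and 1.32-fold higher and did not pass, and *Parp8* and *Parp1* differed by less. At the thresholds of the study, an absolute log2 fold change over 0.32 with an unadjusted p under 0.05, 6 of the 8 passed, all of them higher, against 12.7% of all genes in either direction, 7.19% as higher and 5.48% as lower. In CPM the groups did not overlap for 6 genes, all higher in Drp1 KO, against 21.9% of all genes in either direction and 11.7% with Drp1 KO higher. The median log2 fold change of the 8 genes was 0.65, and that of all genes tested was 0.0046. With the replicate number as a block, 6 of the 8 passed an adjusted p of 0.05, adding *Parp9* and *Parp10*, while the share of all genes that passed was 12.0%, with 6.73% higher and 5.22% lower.

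**Figure D1:**
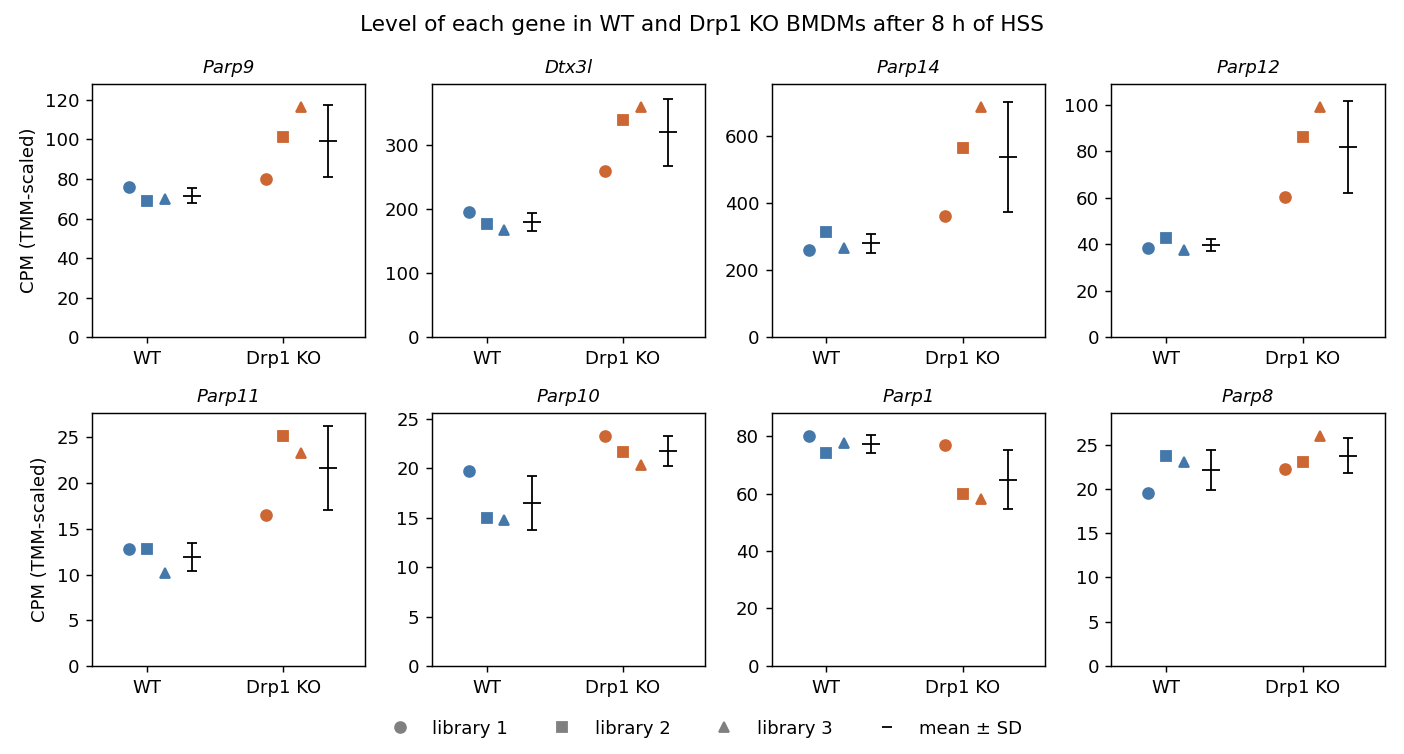
Level of each gene in TMM-scaled CPM (vertical axes, from 0) in the 3 WT and 3 Drp1 KO libraries, with the mean and SD beside the points and a marker shape for each library number. For *Parp12*, *Parp14*, *Parp11*, *Dtx3l*, *Parp9* and *Parp10* every Drp1 KO point lies above every WT point, and for *Parp1* and *Parp8* the groups overlap.

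*Parp9* encodes the macrodomain protein that pairs with DTX3L, and its level was 75.9, 69.0 and 69.7 CPM in WT libraries 1, 2 and 3 and 80.1, 101 and 117 CPM in Drp1 KO libraries 1, 2 and 3. The groups did not overlap in CPM, but Drp1 KO library 1 was close to the highest WT library, and per length it lay inside the WT range, at 43.9 TPM (transcript abundance scaled for length and library total) against a WT maximum of 45.2 TPM. The log2 fold change of *Parp9* was 0.47 (SE 0.132, 95% interval 0.18 to 0.77), with an adjusted p of 0.0901 in edgeR. It passed with the replicate block (log2 fold change 0.46, adjusted p = 0.0225), with DESeq2 (adjusted p = 0.0322), without the filter on low counts (adjusted p = 0.0254) and without Drp1 KO library 1 (log2 fold change 0.59, adjusted p = 0.0149).

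*Dtx3l* encodes the E3 ubiquitin ligase of the pair. It was 195, 177 and 167 CPM in the WT libraries and 260, 338 and 359 CPM in the Drp1 KO libraries. The lowest Drp1 KO library was above the highest WT library by more than the whole WT range. *Dtx3l* rose by 0.83 on the log2 scale (SE 0.129, adjusted p = 0.00726 in edgeR). The call was lost without WT library 2 (adjusted p = 0.0699) or WT library 3 (adjusted p = 0.0598), with log2 fold changes of 0.80 and 0.77.

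*Parp14*, a mono-ADP-ribosyltransferase with macrodomains that is known as a co-activator of STAT6, had the highest mean level of the 8 genes. Its level was 261, 312 and 267 CPM in the WT libraries and 360, 564 and 687 CPM in the Drp1 KO libraries. The groups did not overlap, and the Drp1 KO libraries spread more widely, with a coefficient of variation of 30.8% against 9.97% in WT. *Parp14* rose by 0.94 on the log2 scale (SE 0.198, adjusted p = 0.0312 in edgeR). The call was lost without any 1 of WT libraries 1, 2 and 3 and Drp1 KO libraries 2 and 3 (adjusted p = 0.0651, 0.113, 0.136, 0.136 and 0.0854), with log2 fold changes between 0.73 and 1.01.

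The 3 neighbouring genes were compared per length as ratios of TPM, which are independent of the library total. The ratio of *Dtx3l* to *Parp9* was 1.21, 1.17 and 1.17 in the WT libraries and 1.57, 1.46 and 1.43 in the Drp1 KO libraries. Every Drp1 KO library lay above every WT library, and the mean difference was 0.303 (exact two-sided permutation p = 0.1, the smallest that 3 libraries against 3 can give). The ratio of *Parp14* to *Parp9* was also higher without overlap, at 1.13, 1.48 and 1.35 in WT and 1.51, 1.73 and 1.94 in Drp1 KO (difference 0.404, exact permutation p = 0.1). That separation held for TPM over all transcripts and was lost with protein-coding transcripts alone (difference 0.600, exact permutation p = 0.2) and for the log2 ratio of CPM (difference 0.44, exact permutation p = 0.2). For *Dtx3l* to *Parp9* the exact permutation p was 0.1 in both of these alternatives. By contrast the ratio of *Parp14* to *Dtx3l* overlapped, at 0.932, 1.27 and 1.15 in WT and 0.958, 1.18 and 1.36 in Drp1 KO (exact permutation p = 0.7). Because *Dtx3l* and *Parp9* overlap on opposite strands, 428 sequences of 31 bases occur in transcripts of both genes, where 8.55% of those of *Parp9* and 9.73% of those of *Dtx3l* occur in some other gene. The strand setting of the quantification was not given in the sources used here, so reads from the shared exonic bases may have been divided between them, and the part of this in the ratio was not tested.

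**Figure D2:**
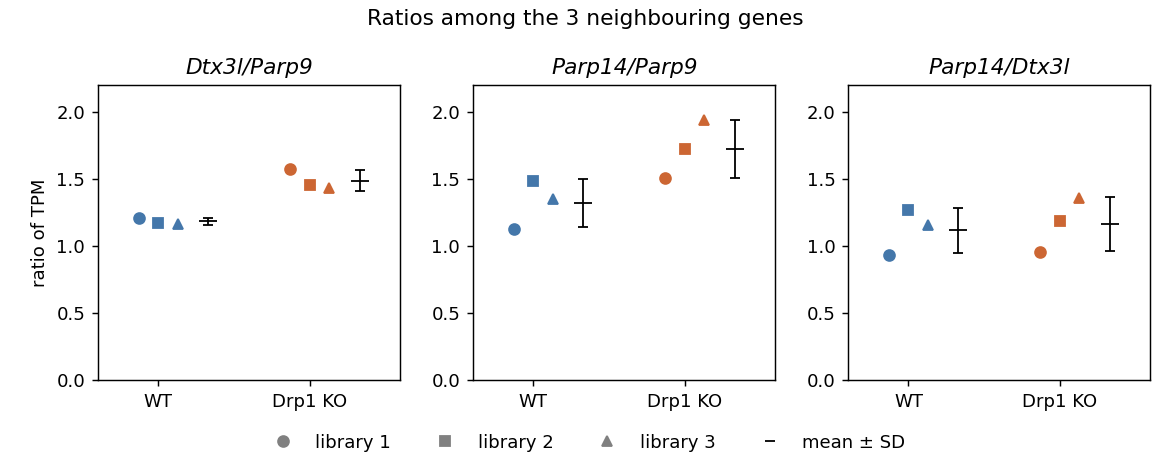
Ratios of TPM among *Parp9*, *Dtx3l* and *Parp14* (vertical axes, from 0) in each library, with mean and SD. The ratios of *Dtx3l* to *Parp9* and of *Parp14* to *Parp9* were higher in all 3 Drp1 KO libraries than in any WT library on this scale (for *Parp14* to *Parp9* not with protein-coding transcripts alone or in CPM), and the ratio of *Parp14* to *Dtx3l* overlapped between 0.932 and 1.36.

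*Parp12* encodes an antiviral mono-ADP-ribosyltransferase with CCCH zinc fingers, and it showed the largest fold change of the 8 genes. Its level was 38.5, 42.6 and 37.6 CPM in the WT libraries and 60.2, 86.3 and 99.2 CPM in the Drp1 KO libraries. The groups were far apart, and Drp1 KO library 1 was again the lowest of its group. *Parp12* rose by 1.05 on the log2 scale (SE 0.163, adjusted p = 0.00719 in edgeR), and it stayed under an adjusted p of 0.05 in 15 of 15 alternative analyses. No sequence of 31 bases in its annotated transcripts occurred in another gene (0% shared).

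*Parp11* encodes a mono-ADP-ribosyltransferase with a WWE domain. It was 12.8, 12.8 and 10.1 CPM in the WT libraries and 16.5, 25.2 and 23.3 CPM in the Drp1 KO libraries. The groups did not overlap, with Drp1 KO library 1 nearest to WT. *Parp11* rose by 0.87 on the log2 scale (SE 0.172, adjusted p = 0.0238 in edgeR). The call was lost with length-scaled counts (log2 fold change 0.91, adjusted p = 0.0535) and without WT library 2 or 3 or Drp1 KO library 2 or 3 (adjusted p = 0.106, 0.121, 0.122 and 0.0795).

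The transcript estimates of *Parp11* separated its start sites, and this gene was picked out after the values of all transcripts had been seen, so no test is given. *Parp11-202*, the transcript that begins at the upstream start with the ISRE core printed above, was estimated at 1.24, 1.81 and 1.30 CPM in the WT libraries and 3.56, 9.30 and 7.50 CPM in the Drp1 KO libraries. All 3 Drp1 KO libraries were above WT, and the means, 1.45 ± 0.313 and 6.79 ± 2.94 CPM (SD, n = 3 each), differed 4.69-fold. *Parp11-201*, from the canonical start without either motif, was 9.58, 8.42 and 7.25 CPM in WT compared with 10.3, 11.0 and 12.2 CPM in Drp1 KO, a 1.33-fold difference in means. *Parp11-202* made up 9.63% to 14.1% of *Parp11* counts in WT compared with 21.6% to 36.9% in Drp1 KO libraries. *Parp11-204*, which also starts upstream of the canonical site, was estimated too, and with both transcripts together the difference was 4.27-fold, at 12.9% to 18.0% of *Parp11* counts in WT compared with 27.0% to 43.3% in Drp1 KO libraries. In the annotated versions, which differ from those deposited, *Parp11-202* has 156 sequences of 31 bases found in no other *Parp11* transcript, whereas *Parp11-201* has 0, so the canonical estimate may rest on how shared reads were divided. The deposited tables give no error for single transcripts.

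**Figure D3:**
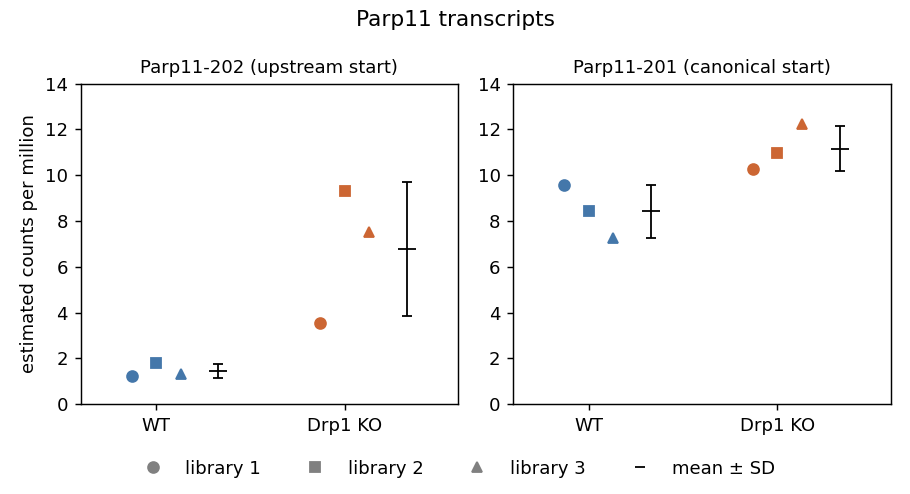
Estimated counts in CPM of the *Parp11* transcript from the upstream start and of the transcript from the canonical start (vertical axes, from 0), per library with mean and SD. The upstream transcript lay between 1.24 and 1.81 in WT and between 3.56 and 9.30 in Drp1 KO libraries, and the canonical transcript between 7.25 and 9.58 and between 10.3 and 12.2.

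*Parp9-201*, with the ISRE core near its start, held 70.9% to 76.5% of *Parp9* counts in WT compared with 73.7% to 76.2% in Drp1 KO libraries. A single transcript carried over 94% of the counts of *Parp12*, *Parp14* and *Dtx3l* in every library.

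*Parp10*, a mono-ADP-ribosyltransferase of the interferon-induced group, was 19.7, 15.0 and 14.8 CPM in the WT libraries and 23.3, 21.6 and 20.3 CPM in the Drp1 KO libraries. The groups did not overlap, but WT library 1 was close to the lowest Drp1 KO library, and library 1 was here the highest of both groups. The log2 fold change was 0.40 (SE 0.138, 95% interval 0.10 to 0.71), with an adjusted p of 0.167 in edgeR. *Parp10* passed with the replicate block (log2 fold change 0.41, adjusted p = 0.0192) and without WT library 1 (0.54, adjusted p = 0.0419). Of its 31-base sequences, 4.06% also occur in *Plec*.

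*Parp1*, the DNA break sensor that makes poly(ADP-ribose), was the only 1 of the 8 genes with a lower mean CPM in Drp1 KO, at 80.2, 74.0 and 77.4 CPM in WT compared with 76.7, 59.7 and 58.2 CPM in Drp1 KO. Drp1 KO library 1 lay within the WT range and libraries 2 and 3 lay below it. The log2 fold change was -0.25 (SE 0.118, 95% interval -0.51 to 0.01, adjusted p = 0.327 in edgeR). Per length the groups were separate, with a Drp1 KO maximum of 26.5 TPM and a WT minimum of 29.2 TPM. Without Drp1 KO library 1 the log2 fold change was -0.40 with an adjusted p of 0.0498.

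*Parp8*, a member with little known function, was 19.6, 23.7 and 23.0 CPM in WT compared with 22.3, 23.0 and 26.0 CPM in Drp1 KO. The groups overlapped. The log2 fold change of *Parp8* was 0.10 (SE 0.119, adjusted p = 0.760 in edgeR), and its 95% interval ran from -0.16 to 0.37. Per length its means went the other way, at 12.4 TPM in WT and 11.9 TPM in Drp1 KO, also with overlap.

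The difference varied with the replicate number. Between libraries numbered 1, the ratio of Drp1 KO to WT was 1.38 for *Parp14*, 1.56 for *Parp12*, 1.33 for *Dtx3l* and 1.29 for *Parp11*. Between libraries numbered 2 the same ratios were 1.81, 2.03, 1.92 and 1.97, and between libraries numbered 3 they were 2.58, 2.64, 2.15 and 2.30. The 4 genes that passed were thus higher within each number, and least so between the libraries numbered 1. For *Parp9* the ratios were 1.06, 1.46 and 1.67 and for *Parp10* 1.18, 1.44 and 1.38. *Parp1* was lower within each number, at 0.957, 0.806 and 0.752, whereas *Parp8* went both ways, at 1.14, 0.968 and 1.13. Drp1 KO library 1 was the lowest Drp1 KO library for 6 of the 8 genes, as it was for 34.6% of all genes averaging 1 CPM or more and for 52.6% of the 424 genes called higher. Library 1 of both groups also stood apart on the second principal component, and its part in the size of these differences was not tested.

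**Figure D4:**
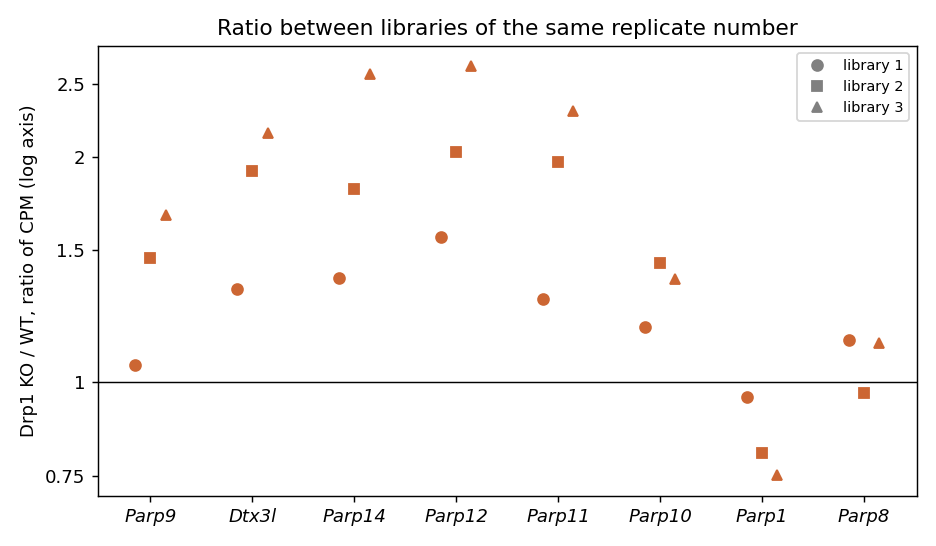
Ratio of CPM in Drp1 KO to WT between libraries of the same replicate number (vertical log axis), for each gene, with a marker shape for each number and a line at 1. For *Parp12*, *Parp14*, *Dtx3l* and *Parp11* the 3 ratios lie between 1.29 and 2.64, for *Parp1* all 3 lie under 1, and for *Parp8* they lie on both sides of 1.

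In levels per length, *Parp14* and *Dtx3l* were the most abundant of the 8 genes in WT BMDMs, at 58.5 ± 6.91 and 52.5 ± 1.93 TPM (SD, n = 3), with ranges that overlapped. They were followed by *Parp9* (44.4 TPM), *Parp1* (31.3 TPM), *Parp12* (19.2 TPM), *Parp8* (12.4 TPM), *Parp11* (9.71 TPM) and *Parp10* (7.39 TPM). Each of these neighbours in the order was separated by its range from the next, except *Parp11* and *Parp10*. In Drp1 KO BMDMs the order was *Parp14* (105 ± 37.1 TPM), *Dtx3l* (88.4 ± 17.5 TPM), *Parp9* (59.9 TPM), *Parp12* (36.8 TPM), *Parp1* (24.0 TPM), *Parp11* (17.4 TPM), *Parp8* (11.9 TPM) and *Parp10* (9.44 TPM). There the ranges of neighbours overlapped, apart from *Parp1* and *Parp11* and *Parp8* and *Parp10*. By mean, *Parp12* thus stood below *Parp1* in WT and above it in Drp1 KO, although in Drp1 KO their ranges overlapped. Over 16 PARP genes, *Parp14* made up 7.25% to 10.0% of the summed TPM in WT compared with 9.32% to 16.8% in Drp1 KO libraries, and *Parp1* 4.46% to 5.01% and 2.80% to 3.72%.

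The other 9 PARP genes were measured for comparison. None passed an adjusted p of 0.05 in edgeR, DESeq2 or limma-voom, 3 had an unadjusted p under 0.05 in edgeR (against 16.4% of all genes), and 3 passed with the replicate block (against 12.0%). These shares are also the background for the counts of the other lists below. Of the 9, 6 had a higher and 3 a lower mean, and their median log2 fold change was 0.12. *Zc3hav1*, the zinc-finger antiviral protein and the most abundant PARP gene (138 TPM in WT and 160 TPM in Drp1 KO), was 471, 406 and 384 CPM in WT compared with 528, 546 and 485 CPM in Drp1 KO. The groups did not overlap, and the log2 fold change of *Zc3hav1* was 0.31 (SE 0.107, adjusted p = 0.174 in edgeR, 0.0232 with the replicate block). Of the 4 other Deltex ligases, 1 passed. *Dtx4* fell from 58.0, 60.5 and 64.0 CPM in WT to 48.3, 42.6 and 45.5 CPM in Drp1 KO (log2 fold change -0.42, SE 0.0952, adjusted p = 0.0418 in edgeR), the opposite direction to *Dtx3l*. That call was lost with length-scaled counts and without WT library 2 or 3 or Drp1 KO library 2 or 3 (adjusted p = 0.0780, 0.158, 0.185, 0.182 and 0.111).

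**Figure D5:**
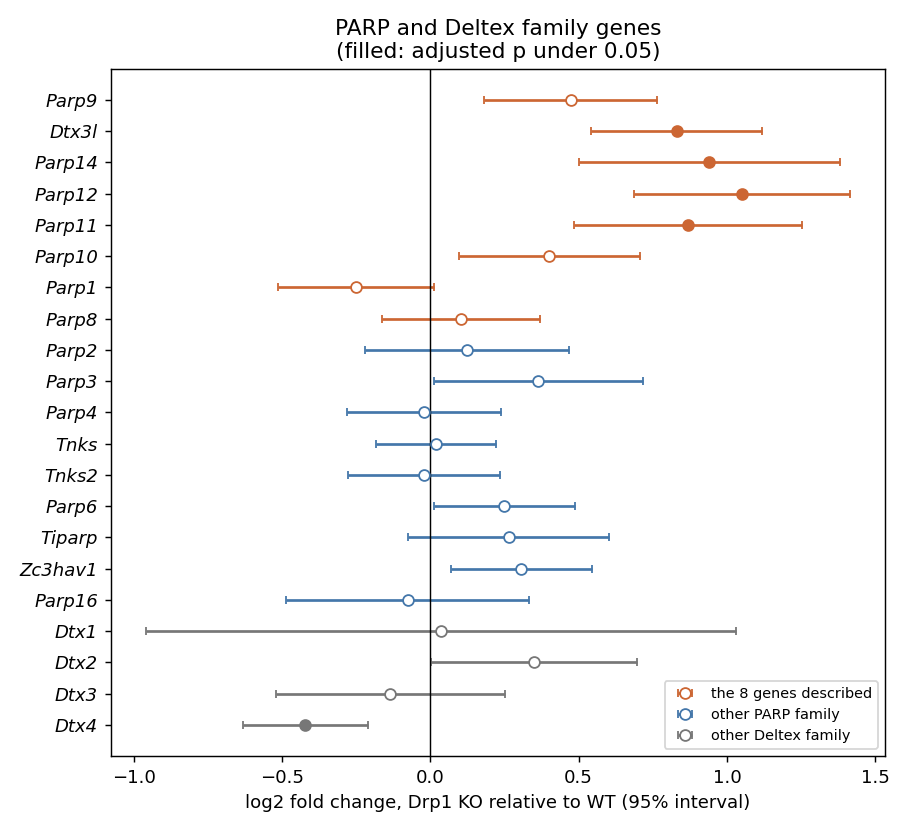
Log2 fold change of Drp1 KO relative to WT (horizontal axis) with its 95% interval for the 8 genes, the other 9 PARP genes and the other 4 Deltex genes, where filled points passed an adjusted p of 0.05. Filled points on the right are *Dtx3l*, *Parp14*, *Parp12* and *Parp11*, and the only filled point on the left is *Dtx4* at -0.42.

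Of 13 genes that remove or read ADP-ribose, 7 had a higher and 6 a lower mean, with a median log2 fold change of 0.03. None passed an adjusted p of 0.05 in edgeR or limma-voom, 3 had an unadjusted p under 0.05 in edgeR, 1 passed with DESeq2 and 3 passed with the replicate block. *Macroh2a1*, a histone variant with a macrodomain and by TPM the most abundant of them in WT, averaged 80.4 ± 8.97 CPM in WT compared with 80.2 ± 9.83 CPM in Drp1 KO (SD, n = 3 each), and its log2 fold change was -0.0045 (SE 0.119), with a sign that changed under 4 alternatives. *Macrod1*, a mono-ADP-ribosyl hydrolase named after its values were seen, was 9.66, 6.33 and 5.69 CPM in the WT libraries and 4.81, 3.76 and 3.77 CPM in the Drp1 KO libraries, lower without overlap (log2 fold change -0.81, SE 0.225, adjusted p = 0.0870 in edgeR). It passed with DESeq2 (adjusted p = 0.0176), without the filter on low counts (adjusted p = 0.0215) and with the replicate block (adjusted p = 0.00589), and was -0.56 without WT library 1. Among 11 partners of PARP1 in DNA repair, none passed in edgeR, DESeq2 or limma-voom, 1 had an unadjusted p under 0.05 in edgeR, 1 passed with the block, and the median log2 fold change was 0.09. *Pcna*, the most abundant of them, averaged 230 ± 14.6 and 253 ± 27.1 CPM, with overlapping groups (log2 fold change 0.14, SE 0.106, adjusted p = 0.608).

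NAD+ is the substrate of the catalytically active PARP enzymes. Of 21 genes of NAD+ metabolism 2 passed in edgeR, both higher, against 3.36% of all genes, with a list median of 0.04 on the log2 scale. DESeq2 called 3, protein-coding transcripts alone gave 0 and the replicate block gave 4 (against 12.0% of all genes). The block added *Cd38*, an NAD+ glycohydrolase, as higher (log2 fold change 0.51, adjusted p = 0.00876) and *Sirt5*, a mitochondrial deacylase, as lower (-0.58, adjusted p = 0.00364), both named after their values were seen. *Cd38* overlapped between the groups and passed in 1 of 15 alternatives, and its log2 fold change was 0.54 with all libraries and 0.23 without Drp1 KO library 1 (adjusted p = 0.515). *Sirt5* was lower without overlap, with a log2 fold change of -0.57 and an adjusted p of 0.142 in edgeR, and passed in 3 of 15 alternatives. *Bst1*, which encodes an ectoenzyme that cleaves NAD+, was 56.5, 63.3 and 62.8 CPM in WT compared with 111, 85.5 and 106 CPM in Drp1 KO. It rose without overlap by 0.73 on the log2 scale (SE 0.115, adjusted p = 0.00795 in edgeR). With protein-coding transcripts alone the log2 fold change of *Bst1* was 0.32 with an adjusted p of 0.221, and without WT library 2 the adjusted p was 0.0559. *Sirt1*, an NAD+-dependent deacetylase, was 22.3, 26.5 and 27.2 CPM in WT compared with 34.0, 36.5 and 39.0 CPM in Drp1 KO. It rose by 0.53 on the log2 scale (SE 0.114, adjusted p = 0.0343 in edgeR), a call lost in 8 of 15 alternatives, among them the removal of any 1 library other than Drp1 KO library 1 (adjusted p up to 0.142) and the use of protein-coding transcripts alone (adjusted p = 0.357). *Nampt*, the rate-limiting enzyme of NAD+ salvage and the most abundant gene of the list, overlapped between groups, at 551 ± 31.1 and 560 ± 47.5 CPM (log2 fold change 0.02, SE 0.101), with a sign that changed under 2 alternatives.

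The factors through which interferon acts were measured beside their known targets, and no count over that list is given here. *Stat2*, which encodes a subunit of ISGF3, was 44.8, 48.4 and 43.0 CPM in the WT libraries and 86.0, 123 and 133 CPM in the Drp1 KO libraries. It rose without overlap by 1.33 on the log2 scale (SE 0.152, adjusted p = 0.00124 in edgeR). *Irf9*, the DNA-binding partner of STAT2, was 49.0, 41.6 and 40.1 CPM in the WT libraries and 76.3, 92.0 and 89.5 CPM in the Drp1 KO libraries. It rose by 0.98 (SE 0.115, adjusted p = 0.00149), again with every Drp1 KO library above every WT library. *Irf7*, a factor induced by interferon itself, was 74.7, 21.2 and 19.3 CPM in WT compared with 349, 355 and 271 CPM in Drp1 KO, a log2 fold change of 3.09 (SE 0.452, adjusted p = 0.00554), with WT library 1 the highest of its group. Without that library the log2 fold change of *Irf7* was 4.003. *Irf1* rose by 0.59 on the log2 scale (SE 0.113, adjusted p = 0.0214), a call lost without any 1 of WT libraries 2 and 3 and Drp1 KO libraries 2 and 3 and with length-scaled counts (adjusted p from 0.0679 to 0.142). *Ifnar2*, a subunit of the type I interferon receptor and by TPM the most abundant of the interferon signalling genes listed in WT, was 357, 364 and 380 CPM in WT compared with 390, 294 and 283 CPM in Drp1 KO, which overlapped (log2 fold change -0.19, SE 0.127, adjusted p = 0.533). *Irf2*, named after its values were seen, was 88.1, 98.8 and 107 CPM in the WT libraries and 73.0, 78.4 and 79.2 CPM in the Drp1 KO libraries, lower without overlap (log2 fold change -0.35, SE 0.0995, adjusted p = 0.0968 in edgeR). It passed with DESeq2 (adjusted p = 0.0305), with the replicate block (adjusted p = 0.0121), with length-scaled counts (log2 fold change -0.81, adjusted p = 0.00644) and without WT library 1 (adjusted p = 0.0444).

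The genes closest to each member in pattern were found by the root mean square difference of log2 CPM, centred on each gene's mean, over the 6 libraries among 12240 genes. The 8 genes described here were left out of these 12240 and of the counts within 0.1 given below. They are a description over the same 6 libraries, in which the difference between the genotypes and the depth of each library enter every pattern. For *Parp12* the closest were *Slfn8* (0.0606), *Gbp7* (0.0740) and *Rnf213* (0.0871), and for *Parp14* they were *Gbp7* (0.0719), *Slfn8* (0.0942) and *Samd9l* (0.0988). *Slfn8*, *Gbp7*, *Rnf213* and *Samd9l* are all known as interferon-stimulated genes. Among the 8 genes themselves, *Parp12* and *Parp14* were the closest pair, with a difference of 0.0938, followed by *Parp11* and *Dtx3l* with 0.105. *Parp14* was thus closer to *Parp12* than to *Slfn8* or *Samd9l*. For *Dtx3l* the closest genes were *Fbxw17* (0.0446), *Dck* (0.0775) and *Grb10* (0.0821), and for *Parp11* they were *Fbxw17* (0.0645), *Psmb9* (0.0977) and *Serp1* (0.102). *Parp9* was closest to *Pkib* (0.0605), *Lamtor5* (0.0778) and *Sinhcaf* (0.0783), and *Parp10* to *Sp140* (0.0352), *Gid4* (0.0426) and *Memo1* (0.0487). *Parp1* lay nearest to *Sdha* (0.0210), *Eif4g1* (0.0265) and *Afg3l1* (0.0275), and *Parp8* nearest to *Fignl2* (0.0418), *Chst15* (0.0425) and *Vldlr* (0.0430). Such small differences were common for flat patterns, since 540 genes lay within 0.1 of *Parp1* and 456 within 0.1 of *Parp8*, compared with 5 for *Parp12*, 3 for *Parp14*, 10 for *Dtx3l*, 2 for *Parp11*, 17 for *Parp9* and 190.0 for *Parp10*.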

How the data were processed

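Poly(A)-selected paired-end libraries of 3 WT and 3 Drp1 KO BMDM cultures were analysed. Per the deposited tables and the labels, the authors quantified reads with kallisto 0.46.1 (version from the submitters' processing notes) and deposited estimated counts and TPM per transcript, with no error for single transcripts. Their index was built on Ensembl cDNA of GRCm39, while the strand setting was not given in the sources used here. Of 116873 transcripts, 116159 (99.4%) were matched by identifier to GENCODE M39 (GRCm39), and 0.542% to 0.575% of counts per library were left out as unmatched. Estimated counts were summed per gene, then rounded. The 18506 genes that reached 10 counts over all libraries were tested with edgeR 4.0.16 (quasi-likelihood, TMM, Benjamini-Hochberg over all genes, R 4.3.3), without covariates, and adjusted p under 0.05 counted as called. edgeR took the place of the DESeq2 test of the study, whose thresholds (absolute log2 fold change over 0.32, unadjusted p under 0.05) were also applied. CPM are TMM-scaled and TPM are sums of the deposited values. The test was checked on simulated counts. No libraries were duplicates, the lowest chi-square per degree of freedom between libraries being 9.50.

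The labels number libraries 1 to 3 in both groups. Deviations from the group means correlated between libraries of the same number (r = 0.510, 0.204 and 0.298 across 12248 genes, which are not independent replicates), all above 0.1. The main test was unpaired. Replicate numbers served as pairs only in the block and in the ratios within a number, on this evidence alone, since no source states a paired design. WT library 2 correlated more with Drp1 KO library 3 (r = 0.326) than with Drp1 KO library 2, so pairing by numbers 2 and 3 is uncertain. The genes and lists were chosen with earlier results of these data known. Named genes were the 8 genes, *Dnm1l*, from every other list those with an adjusted p under 0.05 and the most abundant by TPM, and the 3 nearest patterns per gene. *Macrod1*, *Cd38*, *Sirt5*, *Irf2* and single cell type markers were named outside this rule, after their values were seen. Alternatives were DESeq2 1.42.0, limma-voom (limma 3.58.1), other scalings and filters, length-scaled counts, protein-coding transcripts alone, the replicate block and each library left out. The result of 1 further gene is not reported here.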

Additional observations from a re-analysis of the deposited data

How the results depend on the processing

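The directions of *Parp12*, *Parp14*, *Dtx3l*, *Parp11*, *Parp9*, *Parp10*, *Parp1*, *Parp8* and *Dnm1l* held in 15 of 15 alternatives each. For *Parp8* the log2 fold change was 0.02 with length-scaled counts. Its mean TPM, which is not among these alternatives, went the other way, at 12.4 in WT and 11.9 in Drp1 KO. The count of genes called at an adjusted p under 0.05, 621, became 1155 with DESeq2, 1065 without the filter, 2212 with the replicate block and 181 to 904 with 1 library left out. The count at the thresholds of the study, 2345, ranged from 1935 to 2771 with 1 library left out. Of the 8 genes, 1 to 6 were called with 1 library left out, namely 1 without WT library 2 or WT library 3, 2 without Drp1 KO library 2 or Drp1 KO library 3, 4 without WT library 1 and 6 (5 higher, *Parp1* lower) without Drp1 KO library 1. Over all 17989 to 18230 genes tested, calls were likewise fewest when WT library 2 or 3 was dropped, at 181 and 217. For library 2 or 3 of the Drp1 KO group they were 268 and 348. Dropping library 1 gave 744 calls for WT and 904, the most, for Drp1 KO. The fall to 1 and the rise to 6 were thus not particular to the 8 genes. At the thresholds of the study 5 or 6 passed throughout. *Parp11* missed the threshold with length-scaled counts (log2 fold change 0.91, adjusted p = 0.0535). *Parp9* passed with DESeq2 (0.46, adjusted p = 0.0322), without the filter (0.47, adjusted p = 0.0254) and with the replicate block (0.46, adjusted p = 0.0225), and *Parp10* passed with the block (0.41, adjusted p = 0.0192). The block changed no other call among the 8 genes.

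With 1 library left out, log2 fold changes ranged from 0.90 to 1.22 for *Parp12*, 0.73 to 1.15 for *Parp14*, 0.74 to 0.95 for *Dtx3l*, 0.75 to 1.02 for *Parp11*, 0.35 to 0.59 for *Parp9*, 0.31 to 0.54 for *Parp10*, -0.40 to -0.18 for *Parp1*, 0.02 to 0.14 for *Parp8* and -0.28 to -0.20 for *Dnm1l*. The sign of *Macroh2a1* changed with protein-coding transcripts alone (0.038) and with 1 library left out (range -0.12 to 0.088), that of *Nampt* with 1 library left out (range -0.025 to 0.079) and that of *Pcna* with length-scaled counts (-0.032). The causes were not tested. With 3 libraries per group the exact permutation test cannot go below 0.1, so no single value could pass it.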
